A study of Mus musculus with 9 samples.

Results

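Nes, Vim, Gfap, Synm, Ina, Nefl, Nefm and Nefh encode intermediate filament proteins of neural cells, and their transcripts were followed in neural stem cells treated with hairpins against Phf2. They were chosen by gene symbol, from knowledge of which filament genes stem cells, astrocytes and neurons use, with earlier results of these data known. All 8 were found among the 54232 genes of the count table. Neural stem cells were primary cells of mouse embryos, labelled as subventricular zone of the brain, grown on laminin with FGF at 10 ng/mL and EGF at 20 ng/mL. Cells of all groups received a short hairpin RNA and were taken for RNA sequencing after 3 days. The shNT group received a non-targeting hairpin, and the sh900 and sh902 groups each received a different hairpin against Phf2, a gene of the KDM7 family of histone demethylases. Each group had 3 libraries, of which 1 carried no date in its title, 1 was labelled 30 August and 1 was labelled 3 September. The labels do not say what the date marks, nor whether libraries came from separate cultures or animals, so the p-values below rest on a spread that may be technical. Of strain, age and sex of the embryos, the vector and any selection of treated cells, the labels say nothing. Values of single libraries are listed throughout in the order undated, 30 August, 3 September.

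Intermediate filament proteins pair through a central coiled-coil rod and assemble end to end and side by side into flexible filaments that resist stretch. Cells of the neural lineage change their filament genes as they mature. Nestin and vimentin are made by neural stem cells, vimentin is kept and glial fibrillary acidic protein (GFAP) is added by astrocytes, and alpha-internexin and the neurofilament proteins are made by neurons. Nestin and synemin are long proteins that do not form filaments alone and copolymerise with vimentin. The light neurofilament chain forms the core of the axonal filament, on which the medium and heavy chains depend for assembly.

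RefSeq promoter records (GRCm38.p6) matched 5 of the 8 genes, namely Nes, Vim, Gfap, Synm and Ina; Nefl, Nefm and Nefh were not in that table. The 250 bases before the RefSeq start are given here for Nes (chr3:87970843-87971092, plus strand) and Gfap (chr11:102897201-102897450, minus strand), which moved in opposite directions between the date labels. The gene spans given further on come from GENCODE, in which 1 transcript of each gene begins at that RefSeq start and 1 begins upstream of it. For Nes the upstream start lies 15 bases away, so that the last 15 bases of the window are in its first exon, and for Gfap it lies 3712 bases away, so that the window is within the annotated span but in no exon of the gene. Each reads 5′ to 3′ on the gene's strand, and capitals mark matches to the motifs searched.
Nes: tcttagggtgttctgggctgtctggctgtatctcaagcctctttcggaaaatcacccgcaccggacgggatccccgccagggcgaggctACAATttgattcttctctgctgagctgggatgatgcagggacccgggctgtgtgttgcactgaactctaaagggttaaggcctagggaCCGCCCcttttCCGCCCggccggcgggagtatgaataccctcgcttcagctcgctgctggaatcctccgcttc
Gfap: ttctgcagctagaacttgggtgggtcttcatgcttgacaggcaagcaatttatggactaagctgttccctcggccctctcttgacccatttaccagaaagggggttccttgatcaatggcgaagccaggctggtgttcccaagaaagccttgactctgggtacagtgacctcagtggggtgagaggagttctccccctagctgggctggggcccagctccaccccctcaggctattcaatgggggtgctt
Both strands were searched for TATAAA, a core promoter element, for the Sp1-type box GGGCGG, for the CCAAT element, for TGANTCA, which AP-1 binds, for the STAT motif TTCNNNGAA and for the SOX core ACAAT. The Nes window held 2 GC boxes, read on the minus strand at positions -73 and -62 from the start, and 1 ACAAT at -161. No match to the 6 motifs lay in the Gfap window, which says only that those letters are not in these bases. The corresponding Vim window, which lies inside a leading exon of a longer annotated transcript and is not printed, held TATAAA at -32 and CCAAT at -196 and, on the minus strand, at -94. Synm had 1 CCAAT match, at -78 on the minus strand, and Ina had GC boxes at -111 and -12, also on the minus strand. Among all 27025 promoter records, TATAAA was found in 13.0%, GGGCGG in 32.9%, CCAAT in 34.5%, TGANTCA in 6.87%, TTCNNNGAA in 7.18% and ACAAT in 28.3%. GC content was 58.8% with 15 CpG dinucleotides for Nes and 55.6% with 2 for Gfap, beside medians of 52.0% and 6 over all records.

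Vim supplied most of the filament transcripts in every library. Counts were scaled to a library total of 1000000 (CPM) and, to compare genes, divided by the exon length in kilobases (RPKM). On the RPKM scale Vim was highest in 9 of 9 libraries and stood between 1.14-fold and 7.54-fold above the next gene. It made up 51.2% to 86.0% of the summed RPKM of the 8 genes, Nes 2.46% to 19.9%, Gfap 0.105% to 45.1%, and the other 5 genes together 0.138% to 1.21%. The second place was held by Nes or Gfap in all 9 libraries, and Nes was above Gfap in 5 of them. Gfap exceeded Nes in the undated shNT library and in all 3 libraries of 3 September. In the sh902 library of 3 September the 2 genes were nearly level, at 84.5 against 84.3 RPKM. With the length of the longest transcript they stood at 135 against 88.3 RPKM there. The smallest lead of Vim was over Gfap in the shNT library of 3 September, where Vim took 51.2% and Gfap 45.1%. The order of Vim, Nes and Gfap did not depend on whether gene length was the union of exons, the longest transcript or the APPRIS principal transcript, although the mean level of Vim per kilobase was 853 RPKM with the union and 1844 RPKM with the principal transcript. Together the 8 genes took between 0.334% and 0.837% of all counts of a library.

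**Figure D1:**
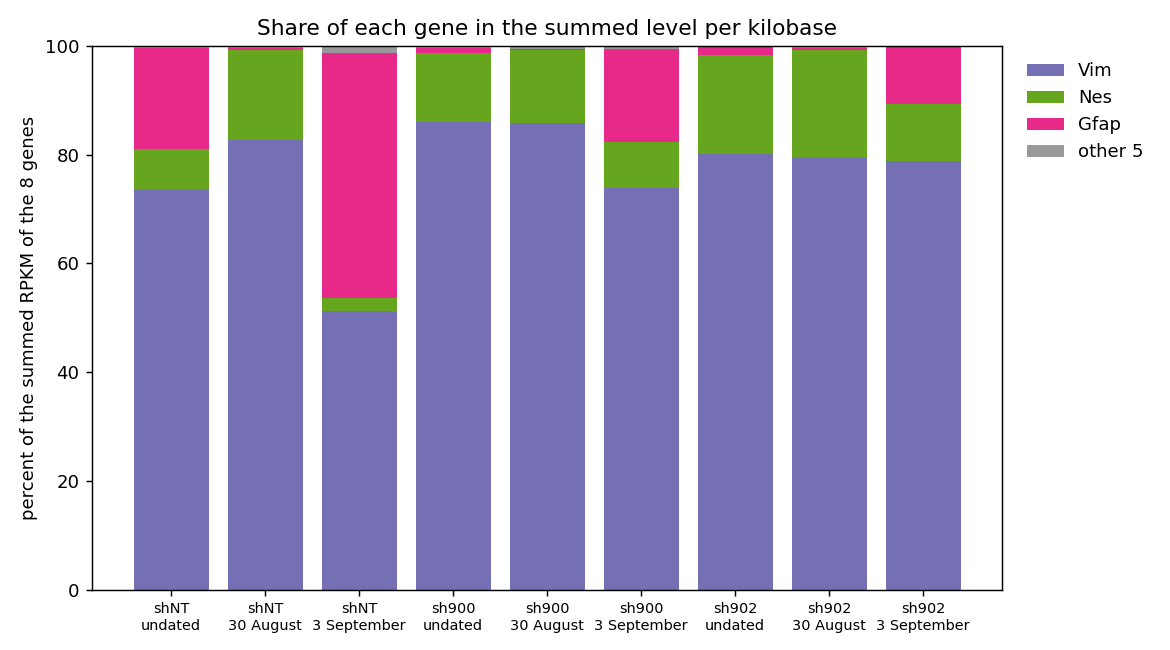
Share of Nes, Vim, Gfap and the other 5 genes in the summed RPKM of the 8 genes (y axis, percent) for each of the 9 libraries (x axis, hairpin and date label). Vim is the largest block in all 9 bars, and Gfap reaches 45.1% in the shNT library of 3 September and 0.105% in the sh900 library of 30 August.

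Library totals ran from 23212472 to 32392496 estimated counts. Phf2 itself was lower in all 6 hairpin libraries than in the 3 controls: it stood at 57.4, 51.6 and 49.5 CPM in shNT, at 19.0, 13.5 and 26.8 CPM with sh900, and at 25.7, 17.0 and 29.2 CPM with sh902. The 10 neural stem cell markers examined were detected in all 9 libraries, but at uneven levels. Sox2 stood at 167 to 352 CPM and Fabp7 at 813 to 2165 CPM. Prom1 ran from 0.557 CPM in the sh902 library of 30 August to 32.9 CPM in the shNT library of 3 September. Lhx2 ran from 19.7 CPM in the sh900 library of 30 August to 134 CPM in the shNT library of 3 September. All 8 filament genes passed the filter on low counts, as did 17602 genes in all. Nefl passed it through hairpin libraries alone, and Nefh only with the help of the sh900 libraries. The main test, edgeR's quasi-likelihood test on the 3 groups with Benjamini-Hochberg adjustment, called no gene at an adjusted p under 0.05 for the mean of both hairpins against shNT, for sh900, for sh902 or for sh902 against sh900 (0% of the genes tested in each). For the mean of both hairpins 2809 genes had an unadjusted p under 0.05 (16.0%), among them 3 of the 8, and DESeq2 called 748 genes and none of the 8. Libraries with the same date deviated from their group means together, and the same test with the date label as a block called 2054 genes for the mean of both hairpins (11.7%; 6.08% higher and 5.59% lower). Blocked values are therefore given beside the unblocked ones for the mean of both hairpins. Single hairpins and sh902 against sh900 are mostly given with the block alone. The blocked fit called 4 of the 8 genes for the mean of both hairpins, 3 higher and 1 lower. Nefl, which passed the filter through hairpin libraries alone, was among those higher. The block also tied the 3 undated libraries, which share no date. Deviations of the undated shNT library correlated at 0.145 and 0.080 with those of the undated sh900 and sh902 libraries. With those of 3 September they correlated at 0.285 and 0.302. Blocked calls and same-label counts therefore rest in part on an uncertain pairing. On the 6 dated libraries alone the blocked test called 1 gene and none of the 8, and for sh902 a blocked fit on the shNT and sh902 libraries alone called none. The controls are shared by both hairpin comparisons, so these are not independent of each other.

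Nes, the gene of nestin (chromosome 3, 87971078 to 87980451, plus strand, GRCm38), was above the control of the same label in 6 of 6 hairpin libraries. The shNT libraries held 381, 778 and 116 CPM. The sh900 libraries held 1103, 1464 and 600 CPM and the sh902 libraries 1205, 1973 and 541 CPM. Within a label both hairpins were thus above the control, but the groups overlapped, since the 30 August control lay above both hairpin libraries of 3 September. The mean of both hairpins against shNT differed by 1.44 ± 0.66 on the log2 scale (SE; n = 3 per group; edgeR adjusted p = 0.326) without the block and by 1.66 ± 0.21 with it (adjusted p = 0.00628). With the block, sh900 gave 1.64 ± 0.23 (edgeR adjusted p = 0.00983) and sh902 1.68 ± 0.23 (edgeR adjusted p = 0.00915). Of all genes tested, 12.7% were above the same-label control in 6 of 6 hairpin libraries, and 4.01% were called with both hairpins in the same direction, as Nes and Vim were. The blocked call for the mean of both hairpins stood with any 1 of the 9 libraries left out. The sh900 call was lost without the undated shNT or sh900 library (edgeR adjusted p = 0.0596 and 0.0592), and the sh902 call without the undated shNT or sh902 library or the sh902 library of 3 September (0.0505, 0.0685 and 0.0507). In the fit on shNT and sh902 alone it stood at 1.72 (edgeR adjusted p = 0.0638).

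Vim, the gene of vimentin (chromosome 2, 13573927 to 13582826, plus strand), was the member whose hairpin and control libraries did not overlap. Control levels were 2766, 2879 and 1790 CPM, against 5527, 6853 and 3821 CPM with sh900 and 3924, 5808 and 3024 CPM with sh902. All 6 hairpin libraries lay above all 3 controls, a separation found in 4.15% of the genes tested. The lowest hairpin value, 3024 CPM, was close to the highest control value, 2879 CPM. The difference of the mean of both hairpins was 0.97 ± 0.32 (SE, log2; edgeR adjusted p = 0.245) without the block and 0.95 ± 0.15 with it (adjusted p = 0.00975), and the blocked call stood without any 1 library. Blocked, sh900 gave 1.16 ± 0.16 (edgeR adjusted p = 0.00968), a call lost without the undated or the 30 August sh900 library (0.0656 and 0.0638), and sh902 gave 0.73 ± 0.16 (edgeR adjusted p = 0.0295). The sh902 call held in 1 of the 9 fits with a library left out, the one without the 30 August shNT library, with adjusted p from 0.0499 to 0.118 over those fits. Among all genes, 8.85% were called for sh900 and 10.5% for sh902 with the block.

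Gfap, the filament gene that marks astrocytes (chromosome 11, 102887336 to 102900912, minus strand), varied 188-fold over the 9 libraries, more than the other 6 genes detected in every library, and its groups overlapped. The shNT libraries stood at 621, 8.57 and 1401 CPM. With sh900 the values were 57.1, 7.47 and 789 CPM, and with sh902 69.2, 27.4 and 357 CPM. Both hairpin libraries were below the control among the undated and the 3 September libraries, while on 30 August, where all 3 libraries were low, sh902 was above the control and sh900 slightly below it. The mean of both hairpins against shNT differed by -1.74 ± 1.45 (SE, log2; edgeR adjusted p = 0.554) without the block and -1.54 ± 0.88 (adjusted p = 0.304) with it. Neither hairpin alone was called, with blocked differences of -1.74 ± 1.002 for sh900 (edgeR adjusted p = 0.323) and -1.35 ± 1.08 for sh902 (edgeR adjusted p = 0.474). With 1 library left out the unblocked value ran from -3.23, without the sh900 library of 3 September, to -0.63, without the control of 3 September. The blocked value ran from -2.39, without the control of 30 August, to -0.32, without the undated control. The same 9 fits gave -2.54 to -0.55 for sh900 and -2.39 to -0.09 for sh902, and none of these was called. The spread between libraries of one group exceeded the difference between groups. In bulk RNA, fewer astrocyte-like cells and less Gfap RNA per cell cannot be told apart, here or for the other genes.

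**Figure D2:**
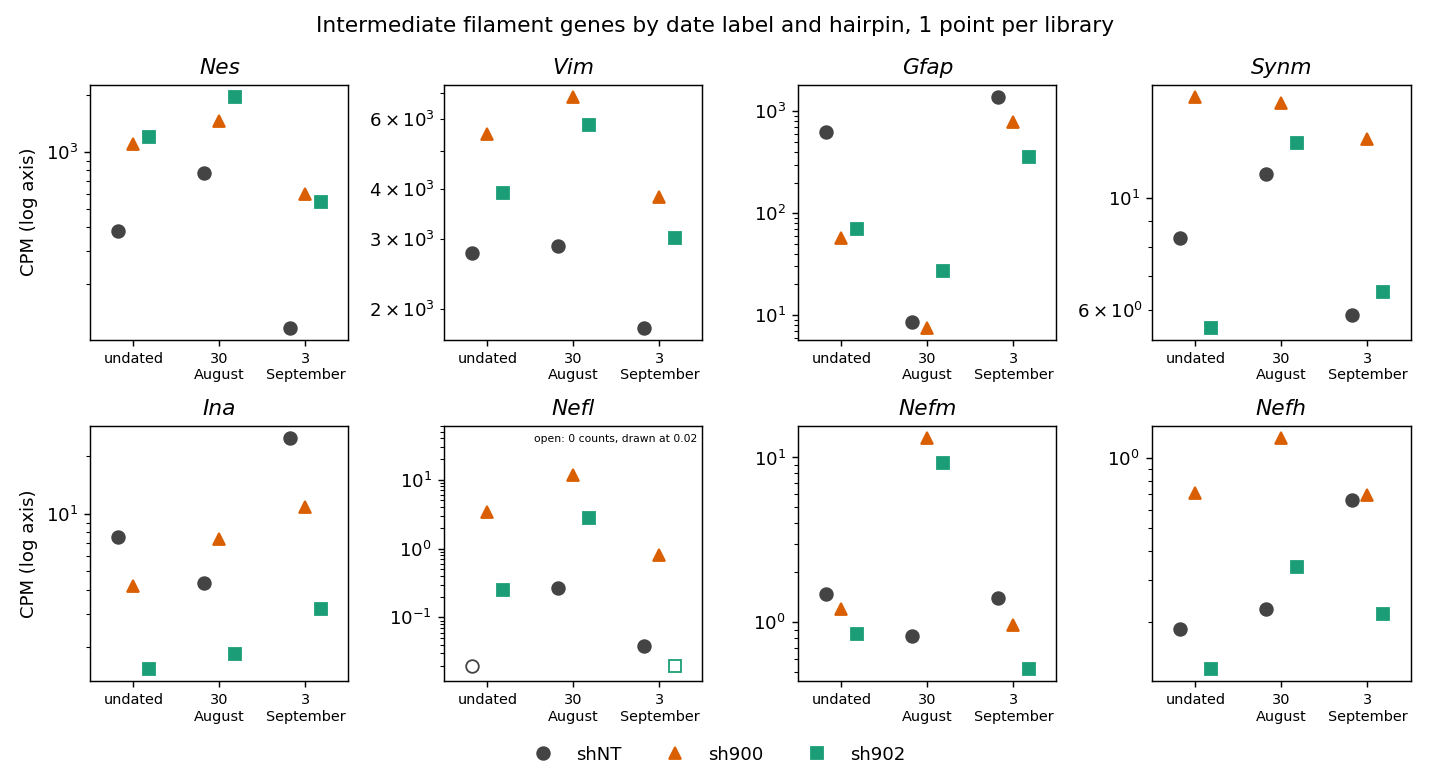
Level of each of the 8 genes in CPM (y axis, logarithmic, own scale per gene) by date label (x axis) and hairpin (symbol), 1 point per library; open Nefl symbols are 0 counts. For Vim all 6 hairpin points lie above the 3 controls, and for Gfap the 30 August points, at 7.47 to 27.4 CPM, lie below all others.

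Synm, which encodes synemin (chromosome 7, 67730160 to 67759742, minus strand), was higher in 5 of 6 hairpin libraries than in the control of the same label, but by little with sh902. The controls stood at 8.34, 11.2 and 5.86 CPM, sh900 at 15.9, 15.5 and 13.1 CPM, and sh902 at 5.53, 12.8 and 6.51 CPM. The 3 sh900 libraries were above all controls and all sh902 libraries, and the sh902 libraries overlapped with the controls. No contrast with shNT was called in the reported fits: the mean of both hairpins was 0.40 ± 0.33 (SE, log2; edgeR adjusted p = 0.549) without the block and 0.42 ± 0.22 (adjusted p = 0.244) with it. Blocked, sh900 gave 0.92 ± 0.25 (edgeR adjusted p = 0.0566) and sh902 -0.08 ± 0.25 (edgeR adjusted p = 0.864). The sh900 difference was called by DESeq2 with the block (0.92; adjusted p = 0.0102) and by the blocked fit without the low-count filter (0.98; edgeR adjusted p = 0.00820). Exons of Synm overlap those of Ttc23 by 84 bases and of Gm45102 by 426 bases on the other strand, and nothing in the sources used here says that strand was counted.

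Ina, which encodes alpha-internexin, a filament protein of young neurons (chromosome 19, 47014698 to 47025327, plus strand), was the member called lower. Ina levels in the controls were 7.55, 4.36 and 25.1 CPM. With sh900 the levels were 4.20, 7.39 and 10.8 CPM, and with sh902 1.53, 1.84 and 3.19 CPM. The 3 sh902 libraries lay below all 6 others, whereas sh900 overlapped the controls and was above the control of its label on 30 August. The mean of both hairpins was -1.60 ± 0.53 (SE, log2; edgeR adjusted p = 0.245) without the block and -1.37 ± 0.33 (adjusted p = 0.0356) with it. That call remained when any 1 library of 30 August was left out and was lost without any 1 of the other 6 (edgeR adjusted p = 0.0842 to 0.180). Blocked, sh902 gave -2.30 ± 0.41 (edgeR adjusted p = 0.0162) and sh900 -0.45 ± 0.39 (edgeR adjusted p = 0.496). Without the 30 August control the sh900 difference was -0.95 and was called (edgeR adjusted p = 0.0386), and without the 3 September control it was near 0 (0.9996). The sh902 call was lost without the undated shNT library, the undated sh902 library or the sh902 library of 3 September (edgeR adjusted p = 0.0745, 0.0974 and 0.0894). Exons of Ina overlap those of Nt5c2 on the other strand by 456 bases, where reads of the pair cannot be told apart unless strand was counted.

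Nefl, the gene of the light neurofilament chain (chromosome 14, 68083863 to 68089095, plus strand), was nearly absent from the controls and was found at low levels in most hairpin libraries. It had 0, 7 and 1 counts in the shNT libraries. With sh900 it had 109, 326 and 21 counts, or 3.36, 11.7 and 0.811 CPM, and with sh902 8, 65 and 0 counts. The 3 sh900 libraries were above all controls, and sh902 overlapped them. Nefl entered the tests only through hairpin libraries, where it was high, so the calls below describe those libraries and are no separate support. Against the 30 August control the ratio of CPM was 44.5 for sh900 (95% exact interval 21.3 to 111.5, counting error only) and 10.6 for sh902 (4.86 to 27.4). Against the undated control, taking 3 counts in a library as the limit that 0 counts allow, Nefl was at least 30.1-fold higher with sh900 and at least 2.24-fold higher with sh902. On 3 September the ratio for sh900 was 20.9 (3.36 to 863.7), and sh902 with 0 counts against 1 allowed no fold. The mean of both hairpins was 4.50 ± 1.74 (SE, log2; edgeR adjusted p = 0.282) without the block and 4.52 ± 0.77 (adjusted p = 0.0124) with it, fitted values that depend on how counts of 0 are treated. The blocked call was lost without the undated shNT library (edgeR adjusted p = 0.0698). Blocked, sh900 was called (edgeR adjusted p = 0.00799), also with any 1 library left out, and sh902 was not (edgeR adjusted p = 0.0616), although DESeq2 with the block and the blocked fit without the low-count filter called it (0.00820 and 0.0114).

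Nefm, the gene of the medium chain, lies beside Nefl on chromosome 14 (68082590 to 68124846, minus strand), and 1108 bases of their exons overlap on opposite strands, so that reads from that stretch cannot be assigned without strand. Nefm had 40, 22 and 36 counts in the controls, 39, 367 and 25 with sh900, and 27, 216 and 12 with sh902. The hairpin libraries of 30 August stood apart from all 7 others, at 13.2 and 9.25 CPM against 0.517 to 1.49 CPM. On that date the ratio to the control was 15.9 for sh900 (95% exact interval 10.4 to 25.7) and 11.2 for sh902 (7.20 to 18.2). In the other labels it was below 1, at 0.809 and 0.567 among the undated libraries and 0.691 and 0.370 on 3 September, in that order of hairpins. The contrast of both hairpins was not called, at 1.84 ± 1.21 (SE, log2; edgeR adjusted p = 0.455) without the block and 0.35 ± 0.91 (adjusted p = 0.849) with it. Blocked, sh900 gave 0.68 ± 0.997 (edgeR adjusted p = 0.707) and sh902 0.02 ± 1.16 (edgeR adjusted p = 0.994). The sh902 difference became -1.09 (edgeR adjusted p = 0.0392) without the 30 August control. In the unblocked fit sh900 gave 2.17 ± 1.33 (edgeR adjusted p = 0.463) and sh902 1.51 ± 1.31 (edgeR adjusted p = 0.587).

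Nefh, the gene of the heavy chain (chromosome 11, 4938754 to 4948064, minus strand), was the lowest of the 8 per kilobase in 5 of 9 libraries. Counts were 5, 6 and 17 in the controls, 23, 34 and 18 with sh900, and 4, 8 and 5 with sh902. The sh900 libraries were all above the controls, by 1 count on 3 September, and the sh902 libraries overlapped them. Its mean difference was 0.34 ± 0.55 (SE, log2; edgeR adjusted p = 0.775) without the block and 0.36 ± 0.52 (adjusted p = 0.696) with it. Blocked, sh900 gave 1.40 ± 0.56 (edgeR adjusted p = 0.154) and sh902 -0.67 ± 0.63 (edgeR adjusted p = 0.531). At this depth these counts leave wide intervals: the ratio to the 30 August control was 5.41 for sh900 (95% exact interval 2.25 to 15.8) and 1.52 for sh902 (0.462 to 5.31).

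**Figure D3:**
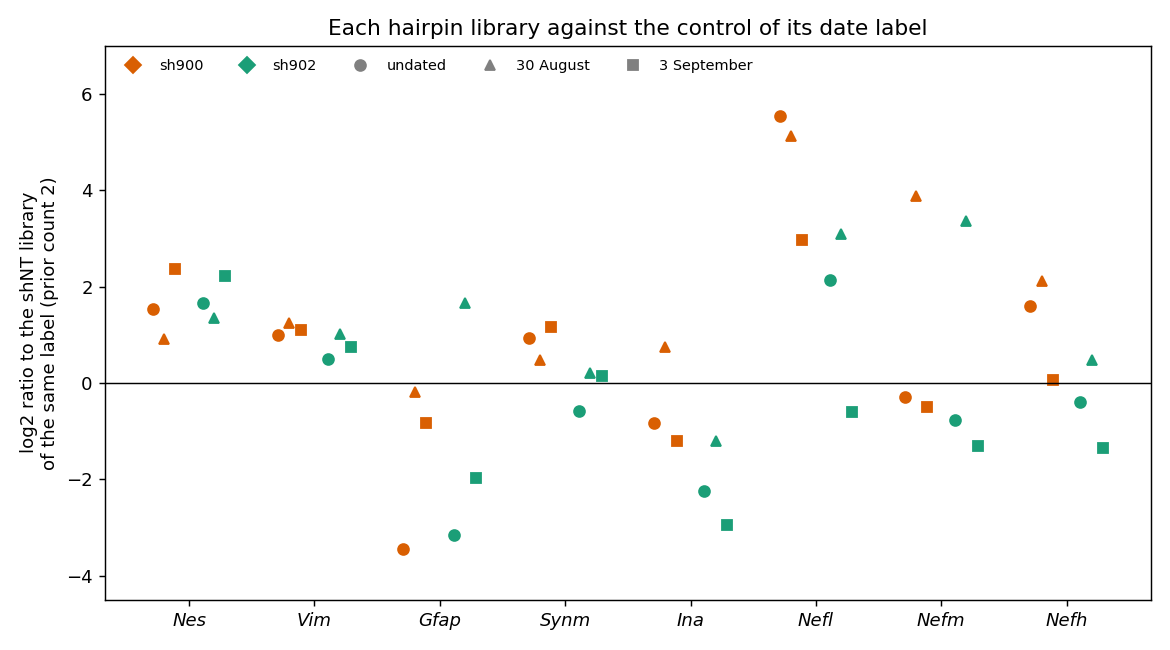
Log2 ratio of each hairpin library to the shNT library of the same date label (y axis, prior count 2) for each gene (x axis), coloured by hairpin and with the label as symbol. All 6 points of Nes and of Vim lie above 0, and the Nefm points of 30 August lie above 3 while its other 4 lie below 0.

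The hairpins were further compared with each other. With the block, 2 of the 8 genes were called for sh902 against sh900, beside 4.22% of all genes tested. Both were lower with sh902: Ina by -1.85 ± 0.40 (SE, log2; edgeR adjusted p = 0.0461) and Nefl by -3.14 ± 0.60 (edgeR adjusted p = 0.0344). Each of these calls was lost in 7 of the 9 fits without 1 library, with adjusted p up to 0.229 for Ina and 0.227 for Nefl. Ina kept its call without the shNT library of 30 August or of 3 September, and Nefl without the undated or the 30 August shNT library. Synm (-0.999 ± 0.249; edgeR adjusted p = 0.0635) and Nefh (-2.07 ± 0.58; edgeR adjusted p = 0.0845) were lower with sh902 in all 3 labels without passing the threshold. Nes differed by 0.04 ± 0.23 (edgeR adjusted p = 0.930), Vim by -0.43 ± 0.16 (0.166), Gfap by 0.40 ± 0.99 (0.852) and Nefm by -0.66 ± 0.89 (0.722), none of which passed the threshold; Vim was lower with sh902 in all 3 labels. DESeq2 with the block, the blocked fit without the low-count filter, the blocked fit on the 2 hairpin groups alone and the blocked fit without the 30 August shNT library each called Synm (adjusted p = 0.00614, 0.00935, 0.0381 and 0.0369) and Nefh (0.0439, 0.0317, 0.0309 and 0.0438). Without the block, none of the 8 was called. Gfap alone changed sign between the 2 fits, standing at -0.90 ± 1.75 without the block (edgeR adjusted p = 0.885).

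The date label separated several of these genes. In a model with group as a term, 5 of the 8 differed between the 3 libraries of 30 August and the 3 of 3 September, 4 higher and 1 lower, beside 20.5% of all genes (10.1% higher and 10.4% lower). Gfap was lower on 30 August by -5.51 ± 1.15 (SE, log2; edgeR adjusted p = 0.0255), from 849 ± 525 CPM on 3 September to 14.5 ± 11.2 CPM (SD, n = 3). Its libraries of 30 August were all below those of 3 September, as for 20.0% of the genes tested. Without any 1 of the 3 sh900 libraries that call was lost (edgeR adjusted p = 0.0593 for the undated, 0.0912 for the 30 August and 0.0889 for the 3 September library). Nes was higher on 30 August by 2.07 ± 0.24 (edgeR adjusted p = 0.00163), at 1405 ± 600 against 419 ± 264 CPM (SD, n = 3), with its 3 libraries above those of 3 September, as for 10.5% of genes, and was called in all 9 fits without 1 library. Vim was higher by 0.93 ± 0.16 (edgeR adjusted p = 0.00752) and Nefl by 4.71 ± 0.75 (edgeR adjusted p = 0.00561), both lost without the sh900 library of 3 September (0.0560 and 0.0596). Synm was called at 0.84 ± 0.25 (edgeR adjusted p = 0.0470) and lost that call in all 9 fits without 1 library (0.0525 to 0.168). Ina (-1.15 ± 0.40; edgeR adjusted p = 0.0766), Nefm (2.98 ± 1.02; 0.0884) and Nefh (0.10 ± 0.58; 0.914) were not called. DESeq2 called Ina and Nefm (adjusted p = 0.0225 and 0.000348), the fit without the low-count filter called Ina (0.0141), and the fit without the 30 August shNT library called Nefm (0.000367). Without the group term 1 of the 8 was called, and on the dated libraries alone 3.

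Whether the hairpin difference itself changed between the dates was tested as an interaction, for which the lone control of each date was assumed to vary like the hairpin libraries. None of the 8 was called, beside 244 of 17602 genes (1.39%). At an unadjusted p under 0.05, 2 of the 8 passed, Nes and Nefm, beside 1408 of 17602 genes (8.0%). Nefm came closest, with a hairpin difference 4.75 ± 0.85 larger on 30 August than on 3 September (SE, log2; edgeR adjusted p = 0.0698). DESeq2 and a fit without the low-count filter both called Nefm (adjusted p = 6.7e-05 and 1.5e-05), and the fit without the filter also called Gfap (edgeR adjusted p = 9.8e-05), which stood at 2.35 ± 1.04 with it (edgeR adjusted p = 0.677). Nes gave -1.08 ± 0.32 (edgeR adjusted p = 0.345) and Vim 0.29 ± 0.48 (edgeR adjusted p = 0.976).

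**Figure D4:**
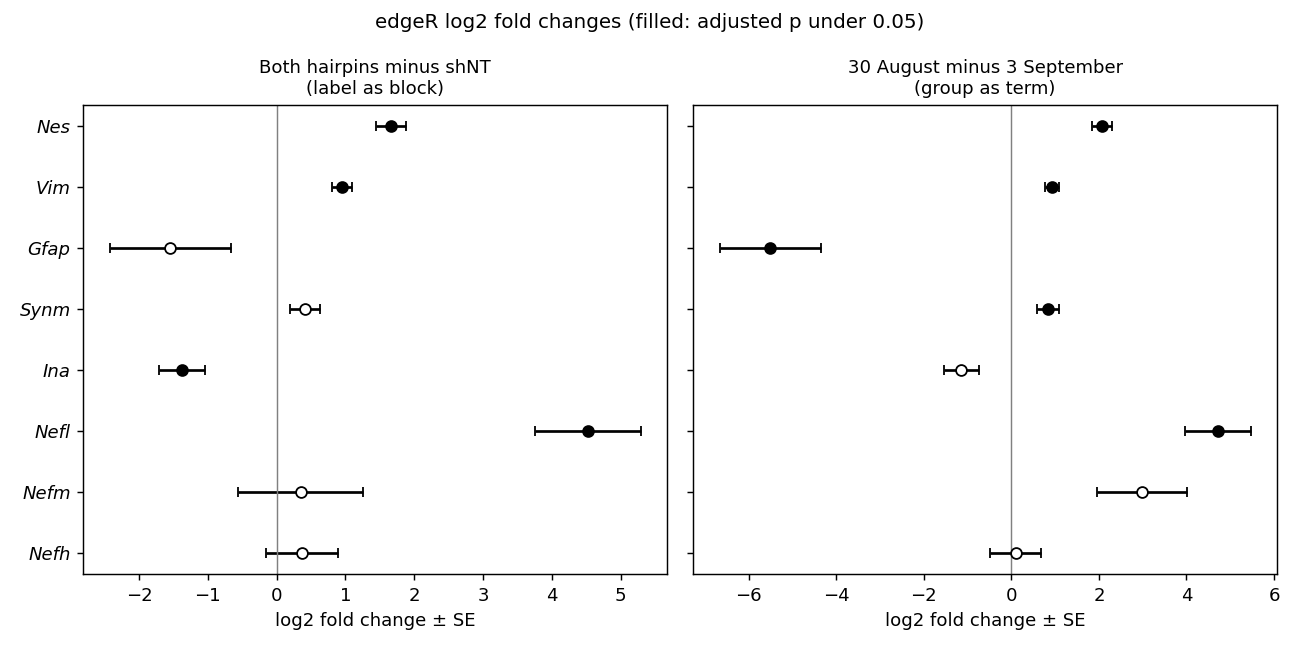
The edgeR log2 fold change ± SE (x axis) of each gene (y axis) for both hairpins minus shNT with the label as block (left) and for 30 August minus 3 September with group as a term (right); filled points have an adjusted p under 0.05. On the left Nes, Vim and Nefl are higher and Ina lower, and on the right Gfap stands at -5.51 while Nes, Vim, Synm and Nefl are higher.

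The 8 genes did not share 1 pattern. As a description, likeness was measured as the root mean square (RMS) difference of log2 CPM, each gene centred on its own mean, over the 9 libraries, which share hairpin and date. The closest pair of the 8 was Vim and Synm (0.42), followed by Nes and Vim (0.68), while Gfap varied by 2.68 RMS and Nefl by 2.49 RMS about their own means. Among 10898 candidate genes, those nearest to Nes (own RMS 1.16) were Atp10a (0.23), Uaca (0.24) and Baiap2 (0.26). Nearest to Vim (own RMS 0.58) were Fbxw9 (0.14), Map2k3 (0.15) and Fndc3b (0.15). Sox10, a transcription factor gene of oligodendrocyte and neural crest lineages, was nearest to Gfap (0.54), before Enpp2 (0.59) and Slc14a1 (0.61). Ina was most like Mapk8ip2 (0.34), Slc24a3 (0.40) and Elfn1 (0.45), and Synm like Cobll1 (0.23), Nr1d1 and Sgsm2 (0.25 each). The nearest genes of Nefl (Ccl2 0.88, Htr1b 0.95, Sema3e 0.995) and Nefm (Fosl1 0.80, Mertk 0.81, Pde2a 0.88) were more distant, and Nefh was nearest to Cacna1b (0.28), Mvp (0.40) and Ntrk3 (0.42).

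Other genes of the filament system were counted in the blocked fit of both hairpins. In that fit the median over all genes was -0.02 on the log2 scale and 11.7% of all genes were called (6.08% higher and 5.59% lower). Of 23 other intermediate filament genes, 9 were measured and 2 rose, with a median of -0.07. These were Lmna, which encodes the A-type nuclear lamins (1.52 ± 0.13, SE, log2; edgeR adjusted p = 0.00338), and Iffo2 (1.60 ± 0.28; 0.0161). Lmna stood at 49.8 ± 17.5 CPM in shNT, 139 ± 48.5 in sh900 and 150.2 ± 78.4 in sh902 libraries (SD, n = 3), above the same-label control in 6 of 6 libraries. Of 12 genes of plakins and other linkers of filaments to membranes and junctions, none was called, with a median of 0.31. With sh900 alone 2 of them were called higher, Utrn and Plec, beside 8.85% of all genes called. Of 22 kinases, proteases, chaperones and other modifiers acting on filament proteins, 2 rose and 3 fell, with a median of -0.0039. The largest of these changes were those of Hspb8, a small heat shock protein gene (1.34 ± 0.34; edgeR adjusted p = 0.0403), and Cdk5r1, the activator of the neurofilament kinase CDK5 (-1.25 ± 0.19; 0.00991). Pak1, a kinase gene, rose by 0.79 ± 0.18 (edgeR adjusted p = 0.0280). Between the dates Lmna (1.31 ± 0.14) and Iffo2 (1.83 ± 0.32) were called higher on 30 August than on 3 September. Cdk5r1 (-1.52 ± 0.23) and Pak1 (-1.60 ± 0.20) were called lower, Pak1 thus opposite to its hairpin difference. Hspb8 was not called by date, and 20.5% of all genes were.

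Regulators of Gfap and Nes transcription numbered 24, of which 1 rose and 5 fell in the blocked fit of both hairpins, with a median of -0.34. Of all genes, 11.7% were called in that fit (6.08% higher and 5.59% lower). The cytokine gene Lif, which acts through STAT3 in astrocyte formation, rose by 2.25 ± 0.35 (SE, log2; edgeR adjusted p = 0.0100), its level being 3.50 ± 3.55 CPM in shNT, 13.8 ± 7.55 CPM in sh900 and 13.7 ± 7.97 CPM in sh902 libraries (SD, n = 3). The nuclear factor I genes Nfix (-0.83 ± 0.21; edgeR adjusted p = 0.0404) and Nfib (-0.49 ± 0.12; 0.0409) fell, as did Rbpj, the effector of Notch signalling (-0.48 ± 0.12; 0.0410). Between the dates Lif was also called, higher on 30 August than on 3 September by 2.30 ± 0.38 (edgeR adjusted p = 0.00608). Nfix, Nfib and Rbpj were not called by date. With sh902 alone 1 of the 24 rose and 8 fell, beside 10.5% of all genes called, and with sh900 alone 1 rose and 1 fell, beside 8.85%. Of 20 reactive astrocyte genes, 17 were measured and 6 rose while none fell in the same fit (11.7% of all genes called), with a median of 0.90. The list's median was 1.35 with sh900, where 5 were called higher (8.85% of all genes called), and 0.24 with sh902, where 4 were called higher (10.5%). For sh902 against sh900 it was -0.63, with Cp and Cd14 called lower (4.22% of all genes called). The 6 genes included S100a10 (1.78 ± 0.20; edgeR adjusted p = 0.00492), Cd44 (1.28 ± 0.15; 0.00519), Cp (0.91 ± 0.12; 0.00637) and the cytokine gene Clcf1 (2.12 ± 0.30; 0.00825), each above its same-label control in 6 of 6 libraries. Between the dates 5 of the 17 were called higher and 3 lower on 30 August than on 3 September, with a median of -0.10 (20.5% of all genes called). Cd44, S100a10, Clcf1 and Cp were among those higher, by 2.52 ± 0.18, 1.84 ± 0.22, 3.81 ± 0.34 and 0.70 ± 0.13 (SE, log2), and Ptx3, S1pr3 and Serping1 were those lower, by -4.72 ± 0.60, -2.58 ± 0.46 and -2.22 ± 0.43. Without the block none of the genes on these 5 lists was called in a hairpin contrast.

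Markers of other cell types moved with the same contrasts, and their part in the results was not tested. Beside the counts that follow, the blocked fit of both hairpins called 11.7% of all genes (5.59% lower), and the date contrast 20.5% (10.4% lower). The summed level of 12 astrocyte markers was 10032, 3029 and 16238 CPM in the controls, 3201, 2325 and 10098 CPM with sh900 and 3323, 2126 and 7063 CPM with sh902. The 6 libraries with the highest sums were in the same order as for Gfap. Of its 11 measured genes, 3 fell with the hairpins in the blocked fit and 9 were lower on 30 August than on 3 September; Gjb6 was at 0 in some libraries. Of 11 measured neuron markers, none rose while 6 fell with the hairpins and 8 were lower on 30 August. The summed level of the 12 listed was 698 to 2039 CPM in the controls, 582 to 1208 with sh900 and 491 to 962 with sh902. Map2 held most of that sum in the 2 extreme libraries. It stood at 1719 of 2039 CPM in the shNT library of 3 September and at 465 of 491 CPM in the sh902 library of 30 August. In the blocked fit of both hairpins Nefl thus rose where these 6 neuron markers fell, and Ina fell with them. With sh900 alone Nefl was called higher, Ina was not called, and 2 of the 11 were called lower (8.85% of all genes called). With sh902 alone Ina was called lower, Nefl was not called, and 5 of the 11 were called lower (10.5%). Gap43, on the same list, was lowest in the shNT library of 3 September (5.12 CPM) and highest in the undated sh900 library (34.2 CPM). Of 10 neural stem cell markers other than Nes and Vim, none rose and 4 fell with the hairpins, at summed levels of 2879 to 3741 CPM in the controls, 2994 to 3088 with sh900 and 1794 to 2716 with sh902. Between the dates none of the 10 was called higher and 4 were lower on 30 August, where Nes and Vim were higher. Of 10 measured oligodendrocyte lineage markers, 6 fell with the hairpins and 7 were lower on 30 August, with Mag at 0 in some libraries. Their summed level was 2362 to 3134 CPM in the controls, 2299 to 2864 with sh900 and 1340 to 2275 with sh902.

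Vim is also made by mesenchymal cells. Of 10 mesenchymal markers, 2 fell with the hairpins (11.7% of all genes called) and 6 were lower on 30 August (20.5%). The summed level of the 10 was 66.4 to 182 CPM in the controls, 68.1 to 265 with sh900 and 100 to 202 with sh902, with Col1a2, Dcn, Lum and Pdgfrb at 0 in some libraries. Fn1, at up to 172 CPM, and Acta2, at up to 142 CPM, weighed most in it. Both were lowest in the shNT library of 3 September, whereas the 6 genes lower on 30 August reached at most 30.0 CPM. Endothelial markers summed to 4.01 to 10.3 CPM and microglial markers to 0.639 to 3.36 CPM over the 9 libraries, with Cdh5, Cldn5, Emcn, Aif1, Cx3cr1, Tmem119, Itgam and Ptprc at 0 in some of them. Of 3 measured endothelial markers 1 fell with the hairpins in the blocked fit, Kdr, and the 1 measured microglial marker was not called. Of 3 measured peripheral glia markers 1 fell, Sox10, with Pmp2 at 0 in some libraries. The 9 cycling cell markers were called in neither the hairpin nor the date contrast, but 7 of them were called in the interaction (1.39% of all genes called). Their summed level was 935, 2732 and 242 CPM in the controls, 1259, 623 and 1032 CPM with sh900 and 1668, 900 and 1477 CPM with sh902, so that the 2 dated controls were the extremes of all libraries.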

How the data were processed

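Estimated counts of 54232 genes in 9 RNA-seq libraries were deposited as 1 table. Tools named in the submitters' processing notes are STAR 2.5.0a, RSEM, Trimmomatic 0.36, cutadapt and FastQC, and the build is GRCm38. Their order, the annotation and how reads were counted are not given there. All estimated counts in the authors' table were whole, and rounding altered none. RSEM shares reads that fit several genes by a model, so overlapping genes are uncertain. Symbols and coordinates came from GENCODE M21, which matched 54079 of 54232 identifiers.

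Libraries were grouped by treatment label. CPM are counts scaled to a library total of 1000000, and RPKM divide CPM by the union of exons in kilobases. Tests ran in R 4.3.3 with edgeR 4.0.16 (quasi-likelihood F test, robust dispersions, TMM factors, default expression filter by group, all 9 libraries), and DESeq2 1.42.0 was an alternative. A gene was called where its p, adjusted by Benjamini-Hochberg over all 17602 genes tested, was under 0.05. The SE was taken as the size of the log2 fold change over root F. No block entered the main model.

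Date labels pair libraries by title. Deviations from group means correlated at 0.402 to 0.627 between libraries of 30 August, 0.456 to 0.645 between those of 3 September, 0.080 to 0.399 between undated ones and -0.661 to 0.302 between labels, so libraries with a date were treated as paired, and those without as perhaps paired. The interaction was fitted to means per label and treatment, hairpins pooled.

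All 8 genes were named. Of each of 5 lists, up to 4 called genes with the smallest adjusted p in the blocked fit of both hairpins were named; Utrn and Plec, and Ptx3, S1pr3, Serping1 and Cd14, were named after their values were seen. Likeness used log2 CPM with a prior count of 2, among genes with a mean of at least 5 CPM. The genes and lists were chosen with earlier results of these data known. The tests were tried on simulated counts. A length from the APPRIS principal transcript was added after the data were seen. A gene counted in one of the lists is not reported here by name.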

Additional observations from a re-analysis of the deposited data

How the results depend on the processing

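Depth limits Nefl and Nefh, which held 0 to 34 counts in most libraries, and 3 libraries a group limit every comparison. Of the alternatives with no library left out, 203 fold changes of the 8 genes kept their direction and their side of the threshold, 24 gained and 22 lost a call, and 3 turned. With a library left out these numbers were 407, 4, 53 and 16. Fold changes of the unblocked fits of sh900, sh902 and sh902 against sh900 are not in these numbers. The causes were not tested. RLE factors changed no count of calls by over 1.5 times.

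Without the block, 0 genes were called in the 4 hairpin contrasts (both hairpins, sh900, sh902, and sh902 against sh900). Without the low-count filter 8, 58, 35 and 139 genes were called, in that order, and none of the 8. DESeq2 called 748, 790, 848 and 1018 genes, and 0, 1, 1 and 0 of the 8. The replicate block gave 2054, 1557, 1850 and 743 genes, and 4, 3, 3 and 2 of the 8. DESeq2 with the replicate block gave 2970, 2590, 2813 and 1757 genes, and 4 of the 8 in each. The blocked fit without the filter gave 1531 genes and 4 of the 8 for sh902 against sh900. On the dated libraries alone the blocked fit called 1, 4, 0 and 0 genes and 0 of the 8. On the compared groups alone it called 472 genes for sh900, 0 genes and 0 of the 8 for sh902, and 2595 genes and 4 of the 8 for sh902 against sh900. For 30 August against 3 September, 448 genes and 1 of the 8 were called without a group term, and 2164 and 3 on the dated libraries alone. For the interaction, no filter gave 772 genes and 2 of the 8, and DESeq2 586 and 1.

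With 1 library left out, the unblocked fits called 0 to 1 genes for both hairpins, 0 to 94 for sh900, 0 to 7 for sh902 and 0 to 95 for sh902 against sh900, and 0 of the 8. The blocked fits called 257 to 3637, 88 to 2912, 45 to 3757 and 0 to 1992 genes, each highest without the 30 August control, and 2 to 4, 1 to 4, 0 to 4 and 0 to 4 of the 8. The date contrast called 1090 to 3990 genes and 1 to 5 of the 8, lowest without the sh900 library of 3 September. The interaction called 0 to 192 genes.

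Directions that turned belong to differences that were not called in the reported fits. In the blocked sh902 contrast on the dated libraries alone Gfap stood at 0.0041 and Synm at 0.13, and Nefm at -0.15 with DESeq2. With 1 library left out, Nefm ranged from -0.75 to 1.26 and Nefh from -0.16 to 1.18 for both hairpins, and Nefm from -0.40 to 1.60 for sh900. For sh902 Synm ranged from -0.30 to 0.17, Nefm from -1.09 to 0.92 and Nefh from -1.20 to 0.16. For sh902 against sh900 Nes ranged from -0.15 to 0.29, Gfap from -0.95 to 1.09 and Nefm from -1.51 to 0.17. Nefh ranged from -0.50 to 0.77 between the dates, and Synm from -0.79 to 0.23 in the interaction.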
